A study of Mus musculus with 12 samples.

Results

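The collagen genes were measured in cells of the mouse superior cervical ganglion (SCG), a sympathetic ganglion at the base of the skull. A gene was taken as a member when its symbol in the platform annotation reads Col, a number, the letter a and a number, which holds for 42 of 18193 genes and 82 of 45037 probe sets. Of the 42 genes, 27 have several probe sets, and each gene was then read from the one that was brightest on average across all 12 arrays. The 3D cultures were SCG cells grown for 5 days in polystyrene scaffolds, the 2D cultures were SCG cells grown for 5 days on a flat polystyrene Petri dish, and the tissue was freshly dissected SCG that had not been cultured. Each of the 3 groups had 4 biological replicates from CD1 mice, and the study used tissue to ask which culture resembles the ganglion. The labels give an age of 21 days for all groups where the methods name neonatal mice, and the methods name glass bottom dishes for 2D. The ganglia for culture had been digested with collagenase, and 3D and 2D substrates were both coated with type I collagen from rat tail, which is protein and not messenger RNA. Serum and nerve growth factor were in the medium of both cultures. The sources used here do not say which replicates came from separate litters or platings, so the p-values measure the spread between these arrays.

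A collagen molecule is a triple helix of 3 alpha chains, which can be alike or different, with a gene of its own for each kind of chain, and the type is named by its chains. Fibrillar collagens (among them types I, III and V) form the banded fibrils of connective tissue, and the epineurium and endoneurium of peripheral nerve and ganglia are rich in types I and III. Type IV collagen forms the network of basement membranes, which surround Schwann cells, the satellite glia of each ganglion neuron and blood vessels. Fibril-associated collagens bind to the surface of fibrils, type VI forms beaded filaments, type VIII forms hexagonal lattices, and types XV and XVIII (the multiplexins) carry sugar chains and sit in basement membranes. Chains are hydroxylated, folded with chaperones, trimmed by proteases and crosslinked outside the cell.

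Expression levels are log2 values per probe set from the RMA algorithm, which gives no detection call. Levels of different genes cannot be set against each other, because probe sets differ in brightness. Of the 42 genes, 16 had a mean of at least 10 over the 12 arrays and 10 had a mean below 6, close to the lower end of the scale. The arrays read all cells together, so fewer cells of a type and less RNA per cell cannot be told apart.

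The tissue arrays were not alike. The 3′ probe set of Gapdh exceeded its 5′ probe set by 0.48 to 0.83 on the log2 scale on the 3D arrays and by 0.36 to 1.27 on the 2D arrays, against 1.1, 3.45, 3.05 and 1.0 on tissue replicates 1 to 4. The bacterial spike-in bioB read 6.92 to 8.07 on the culture arrays, against 8.89, 10.04, 11.6 and 8.68 on tissue replicates 1 to 4, so tissue replicates 2 and 3 stood apart in both measures. Their values were also spread less widely, with an SD over all probe sets of 2.14 and 1.932 on tissue replicates 2 and 3, against 2.309 to 2.417 on the other 10 arrays. Tissue replicates 2 and 3 both lay below tissue replicates 1 and 4 in 23 of 42 collagen genes (54.8%, against 36.0% of all genes), and in 15 of the 16 collagen genes with a mean of at least 10 (93.8%, against 56.7% of such genes). The log2 summed level of 12 skeletal muscle genes was 9.40 to 9.53 in 3D and 9.30 to 9.52 in 2D, against 9.59, 13.10, 12.03 and 12.98 on tissue replicates 1 to 4. The part of RNA quality and of the muscle genes in the results was not tested. Comparisons with tissue are given with all 4 tissue arrays. For most collagen genes that passed they are also given with tissue replicates 1 and 4 alone. Most single genes outside the collagen family are given with all 4 tissue arrays only.

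More collagen genes passed the test between either culture and tissue than between 3D and 2D. In 3D cultures 13 collagen genes rose and 6 fell against tissue, where 20.1% of all genes were higher and 15.5% lower. After cyclic loess scaling of the arrays these counts were 15 and 4, and the shares of all genes were not taken under that scaling. In 2D cultures 10 rose and 4 fell against tissue, where 14.3% of all genes were higher and 9.87% lower. Between 3D and 2D no collagen gene passed the test, and neither did most other genes, with 0.0165% higher and 0% lower. Each pair of groups was tested with limma on its 8 arrays, p-values were adjusted by the Benjamini-Hochberg method across all 45037 probe sets, and an adjusted p under 0.05 counted as a pass. In a moderated F test over the 3 groups 21 of the 42 collagen genes passed, against 39.3% of all genes. The median log2 difference of the 42 genes was 0.48 in 3D minus tissue and 0.32 in 2D minus tissue, beside -0.03 for all genes in each. Both comparisons use the same tissue arrays and are therefore not independent.

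**Figure D1:**
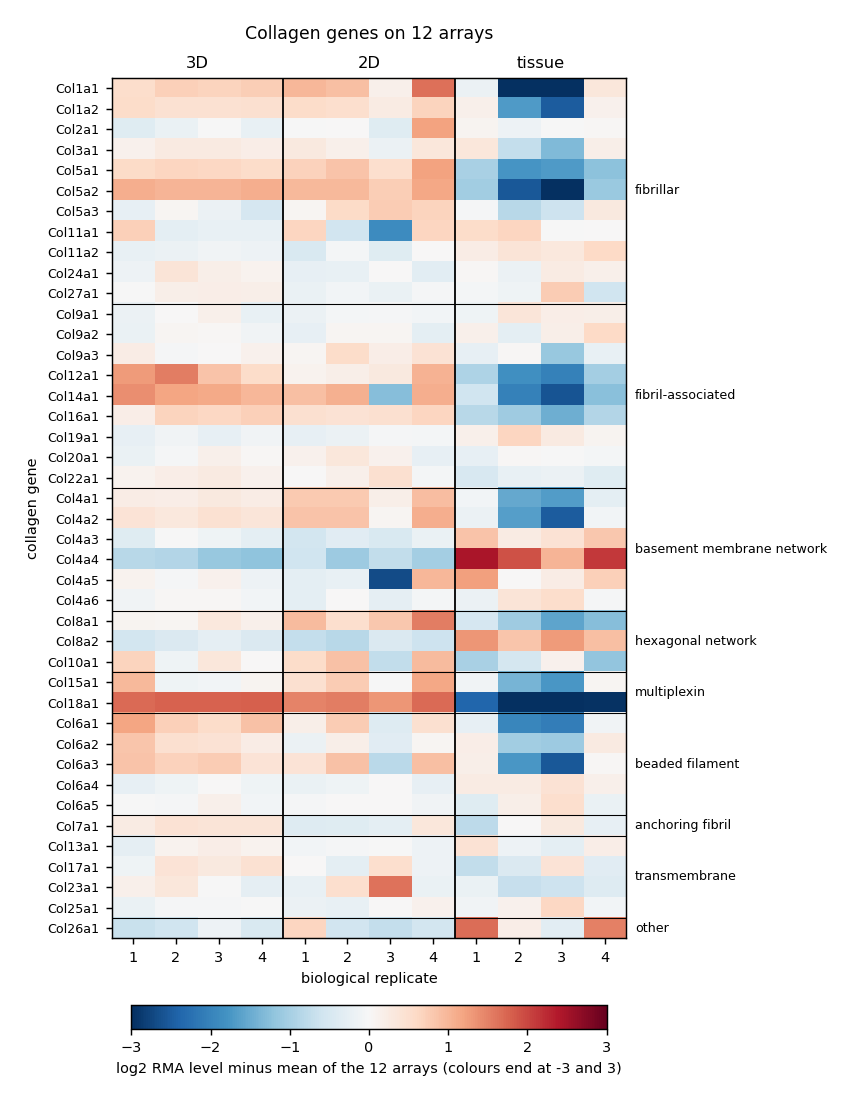
Log2 RMA level of each of the 42 collagen genes (rows, grouped by class) minus the gene's mean over the 12 arrays, for the 4 replicates of 3D, 2D and tissue (columns), with colours ending at -3 and 3. Col18a1 is below its mean on every tissue array, Col1a1 is lowest on tissue replicates 2 and 3 (9.26 and 9.01), and 2D replicate 3 is lowest of its group for Col4a5 (5.28) and Col14a1 (10.02).

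Without tissue replicates 2 and 3 the counts were 19 higher and 9 lower in 3D (24.6% and 22.7% of all genes) and 7 higher and 4 lower in 2D (12.3% and 10.1% of all genes). With and without these arrays, 7 genes were higher in both cultures (Col4a1, Col5a1, Col5a2, Col8a1, Col12a1, Col16a1 and Col18a1) and 3 were lower in both (Col4a3, Col4a4 and Col8a2). Not every one of these calls held when a single array was left out. In 3D minus tissue 8 of the 13 higher and 4 of the 6 lower calls held in each of the 8 omissions, and in 2D minus tissue 6 of 10 and 3 of 4. Groups of 4 arrays did not overlap in 20 collagen genes between 3D and tissue (42.4% of all genes), in 17 between 2D and tissue (33.8%) and in 4 between 3D and 2D (7.36%).

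The fold of greatest size among the 42 genes in both comparisons with tissue was that of Col18a1, which codes for the chain of type XVIII collagen, a basement membrane proteoglycan whose C-terminal fragment is endostatin. Its level was 13.06, 13.13, 13.12 and 13.14 on the 3D arrays and 12.85, 12.88, 12.67 and 13.06 on the 2D arrays, against 8.97, 7.23, 7.74 and 8.4 in tissue. Every culture array read above every tissue array with no overlap. Col18a1 was 32.6-fold higher in 3D than in tissue (log2 difference 5.03, standard error 0.33, adjusted p = 1.9e-05 from limma) and 27.5-fold higher in 2D than in tissue (4.78, standard error 0.34, adjusted p = 8.4e-05). Against tissue replicates 1 and 4 the log2 difference was 4.43 in 3D and 4.18 in 2D. Its second probe set differed alike, by 5.07 and 4.83. The exact two-sided permutation test gave p = 0.0286 in each case, the smallest that 4 arrays against 4 allow. The other multiplexin, Col15a1, rose in 2D against tissue (log2 difference 1.40, adjusted p = 0.0496), a call lost without tissue replicates 2 and 3 (0.62, adjusted p = 0.200), in 6 of 8 single-array omissions and with cyclic loess (0.95, adjusted p = 0.0595). In 3D it differed from tissue by 1.01 (adjusted p = 0.105).

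The promoter of Col18a1 is shown because this gene had the greatest fold. RefSeq promoter windows (assembly GRCm38.p6) were matched for 33 of the 42 genes, in 36 windows, and the 150 bases before the annotated start were searched on both strands for the GC box (GGGCGG or CCGCCC), the CCAAT box (CCAAT or ATTGG) and the TATA box (TATAAA or TTTATA). A GC box was present in 18 of the 36 collagen windows against 28.6% of the 32851 windows in the table, a CCAAT box in 22.2% against 24.5%, and a TATA box in 11.1% against 7.6%. The window of Col18a1 at chr10:77166531-77166680 (minus strand) lies in no other annotated gene and holds 3 GC boxes, in capitals:
Col18a1: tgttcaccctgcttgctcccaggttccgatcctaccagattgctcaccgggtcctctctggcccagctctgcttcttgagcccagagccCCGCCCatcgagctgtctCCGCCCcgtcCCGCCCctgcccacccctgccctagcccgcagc
Col18a1 has a second annotated start with a window inside the gene, in which none of these letters were found. Which start the cells used was not measured.

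**Figure D2:**
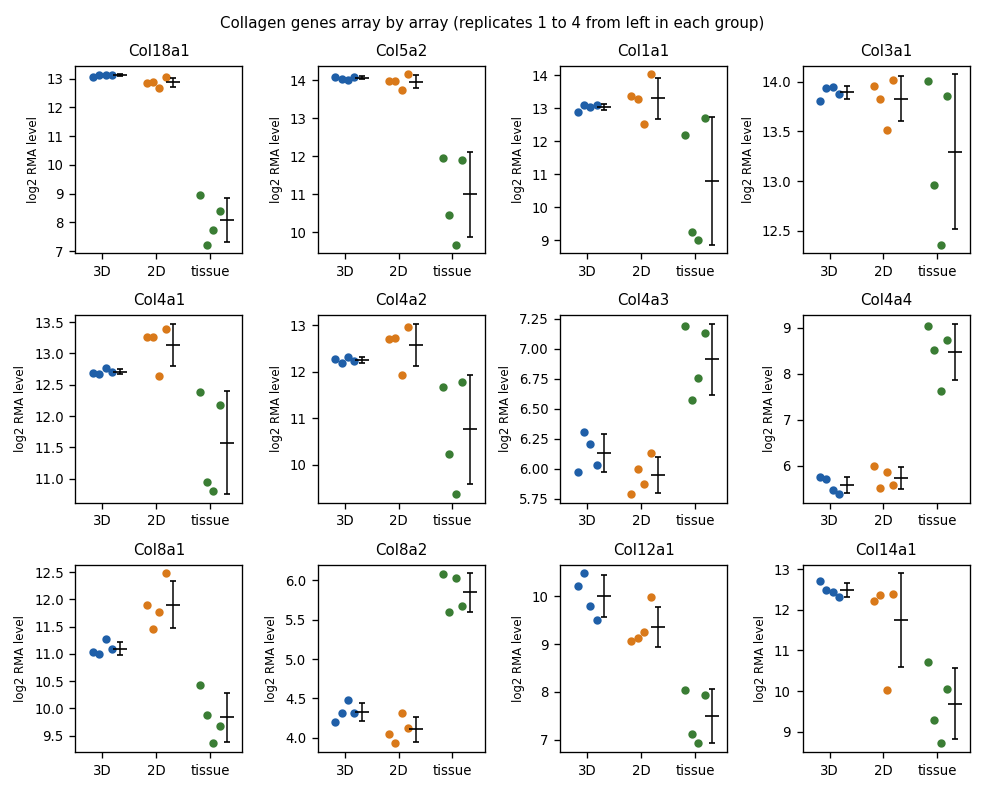
Log2 RMA level of 12 collagen genes on each array (points, replicates 1 to 4 from left) for 3D, 2D and tissue, with mean and SD (bars) of 4 arrays. Col18a1 reads 12.67 or more on every culture array and 8.97 or less in tissue, and Col4a3, Col4a4 and Col8a2 read higher in tissue than on any culture array.

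Among the 11 fibrillar genes, Col5a1 and Col5a2 rose in both cultures and Col11a2 fell. Type V chains co-assemble with type I and limit the width of the fibril. Col5a2 read 14.09, 14.03, 14.01 and 14.09 in 3D and 13.97, 13.98, 13.73 and 14.15 in 2D, against 11.95, 10.45, 9.67 and 11.89 in tissue. The groups did not overlap with tissue, and tissue replicates 2 and 3 lay below the other tissue arrays. Its log2 difference from tissue was 3.07 in 3D (standard error 0.47, adjusted p = 0.0015) and 2.97 in 2D (standard error 0.48, adjusted p = 0.0040), and with tissue replicates 1 and 4 it was 2.14 and 2.04. Col5a1 read 12.44, 12.50, 12.48 and 12.40 in 3D and 12.55, 12.71, 12.36 and 13.07 in 2D, against 10.88, 10.08, 10.16 and 10.63 in tissue. It was 4.05-fold higher in 3D (adjusted p = 0.000125) and 4.71-fold higher in 2D (adjusted p = 0.000518) than in tissue, and no single omission ended either call. Its log2 difference from tissue replicates 1 and 4 was 1.70 in 3D and 1.92 in 2D. The third type V chain, Col5a3, had log2 differences of 0.09 in 3D and 0.82 in 2D from tissue, and neither passed.

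The chains of types I and III did not pass with all tissue arrays in the test stated above. Some alternatives gave calls for the type I chains. Col1a1, the alpha 1 chain of type I collagen, read 12.90, 13.10, 13.05 and 13.11 in 3D and 13.37, 13.28, 12.52 and 14.03 in 2D, against 12.20, 9.26, 9.01 and 12.71 in tissue. Tissue replicates 2 and 3 lay far below the other tissue arrays, and tissue replicate 4 lay above 2D replicate 3. The log2 difference from tissue was 2.25 in 3D (adjusted p = 0.0575) and 2.51 in 2D (adjusted p = 0.0597). With tissue replicates 1 and 4 alone it was 0.59 in 3D (adjusted p = 0.0136) and 0.85 in 2D (adjusted p = 0.179). A second probe set of Col1a1 gave 0.20 in 3D and 0.58 in 2D with all tissue arrays, with adjusted p = 0.478 and 0.119. The call depended on the fit, since Col1a1 passed in both comparisons after centring (1.97, adjusted p = 0.0419 in 3D, and 2.22, adjusted p = 0.0366 in 2D), without dim probe sets (adjusted p = 0.0469 and 0.0475) and in 1 fit of all 12 arrays (adjusted p = 0.0269 and 0.0181).

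Col1a2, the alpha 2 chain of type I collagen, read 14.05, 13.97, 13.96 and 13.99 in 3D and 14.05, 14.01, 13.76 and 14.18 in 2D, against 13.66, 11.81, 11.02 and 13.64 in tissue. The brightest probe set of each array read 14.26 to 14.42, so Col1a2 was close to the upper end of the scale in the cultures, as were Col3a1 and Col5a2, and saturation was not tested. The log2 difference was 1.46 in 3D (adjusted p = 0.0706) and 1.47 in 2D (adjusted p = 0.0866), and 0.34 (adjusted p = 0.0143) and 0.35 (adjusted p = 0.128) with tissue replicates 1 and 4. A second, dimmer probe set passed in both comparisons, with 1.36 in 3D (adjusted p = 0.0189) and 1.44 in 2D (adjusted p = 0.0272). Its remaining probe set did not pass, with -0.15 in 3D (adjusted p = 0.598) and 0.44 in 2D (adjusted p = 0.297). Averaged over its probe sets, Col1a2 passed in both comparisons (0.89, adjusted p = 0.0358 in 3D, and 1.115, adjusted p = 0.0293 in 2D). Col1a2 also passed in both in 1 fit of all 12 arrays (adjusted p = 0.03 and 0.0314). The 150 bases before its annotated start (chr6:4505468-4505617, plus strand, GRCm38.p6) are printed as those of an abundant fibrillar chain, with its 1 CCAAT box in capitals:
Col1a2: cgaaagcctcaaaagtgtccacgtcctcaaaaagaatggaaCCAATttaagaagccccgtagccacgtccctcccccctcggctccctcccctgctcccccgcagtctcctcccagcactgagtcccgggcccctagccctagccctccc

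Col3a1, the single chain of type III collagen, read 13.81, 13.94, 13.95 and 13.88 in 3D and 13.96, 13.83, 13.51 and 14.02 in 2D, against 14.01, 12.96, 12.36 and 13.86 in tissue. The groups overlapped, with tissue replicate 1 above each of the 3D arrays. Its log2 difference from tissue was 0.60 in 3D (95% interval -0.16 to 1.36, adjusted p = 0.189) and 0.53 in 2D (95% interval -0.26 to 1.33, adjusted p = 0.273). Against tissue replicates 1 and 4 it was -0.04 in 3D and -0.11 in 2D. Col11a2, a chain of type XI collagen known from cartilage fibrils, read 5.52, 5.56, 5.63 and 5.59 in 3D and 5.27, 5.67, 5.36 and 5.74 in 2D, against 5.95, 6.12, 6.04 and 6.34 in tissue. It fell by 0.54 in 3D (adjusted p = 0.0121) and by 0.60 in 2D (adjusted p = 0.0325), and the 2D call was lost in 5 of 8 single-array omissions and without tissue replicates 2 and 3 (adjusted p = 0.0596). With cyclic loess Col11a2 missed the threshold in both (-0.29, adjusted p = 0.176 in 3D, and -0.35, adjusted p = 0.196 in 2D). The remaining fibrillar genes (Col2a1, Col11a1, Col24a1 and Col27a1) had log2 differences of -0.60 to 0.22 from tissue in the 2 cultures and did not pass. Col27a1 passed in 3D with tissue replicates 1 and 4 (0.46, adjusted p = 0.0419), and its second probe set did with all tissue arrays (0.53, adjusted p = 0.0173).

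Of the 9 fibril-associated genes, 4 rose and 1 fell in 3D and 3 rose in 2D against tissue. Col14a1, a fibril-associated chain also called undulin, read 12.71, 12.48, 12.44 and 12.31 in 3D and 12.22, 12.37, 10.02 and 12.39 in 2D, against 10.71, 9.28, 8.71 and 10.05 in tissue. On 2D replicate 3 it read far below the other 2D arrays and within the range of tissue. It was 6.95-fold higher in 3D than in tissue (log2 difference 2.80, adjusted p = 0.000821), with a log2 difference of 2.11 against tissue replicates 1 and 4. The 2D difference was 2.06 (adjusted p = 0.0398), and it missed the threshold with tissue replicates 1 and 4 (1.37, adjusted p = 0.215). The call also ended when any 1 of 2D replicates 1, 2 and 4 and of tissue replicates 2 and 3 was left out, with adjusted p up to 0.110, with cyclic loess (1.61, adjusted p = 0.0534) and when its probe sets were averaged (1.20, adjusted p = 0.0622), and held without 2D replicate 3 (2.64).

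Col12a1, a fibril-associated chain of dense connective tissue such as tendon, read 10.23, 10.49, 9.80 and 9.51 in 3D and 9.06, 9.14, 9.25 and 9.99 in 2D, against 8.03, 7.11, 6.92 and 7.93 in tissue. Both cultures lay above tissue without overlap. The log2 difference was 2.51 in 3D (standard error 0.31, adjusted p = 0.00051) and 1.86 in 2D (standard error 0.31, adjusted p = 0.0047), and 2.03 and 1.38 with tissue replicates 1 and 4. Of its other 3 probe sets, 1 rose in both cultures (1.21 and 1.02) and 2 that read about 4 on all groups were lower, 1 of them past the threshold in 3D (-0.58, adjusted p = 0.0437). Col16a1 rose by 1.62 in 3D (adjusted p = 0.000356) and by 1.57 in 2D (adjusted p = 0.000699), and by 1.41 and 1.37 with tissue replicates 1 and 4. Col22a1, known from tissue junctions such as that of muscle and tendon, rose by 0.49 in 3D (adjusted p = 0.0169), and its 2D difference of 0.46 missed the threshold (adjusted p = 0.0779), while 3D and 2D differed by 0.03 (adjusted p = 0.944). Centring the arrays on their bright probe sets ended the Col22a1 call in 3D (0.21, adjusted p = 0.4), as did leaving out 3D replicate 2, 3 or 4, and cyclic loess gave a call in 2D (0.69, adjusted p = 0.0106). Both other probe sets of Col22a1 had differences of the other sign in 3D minus tissue (-0.10, adjusted p = 0.637, and -0.21, adjusted p = 0.296), and averaged over its probe sets the difference was 0.06 (adjusted p = 0.708). Col19a1 read 4.68, 4.82, 4.68 and 4.81 in 3D and 4.68, 4.75, 4.89 and 4.86 in 2D, against 5.07, 5.57, 5.18 and 4.99 in tissue. It fell in 3D by 0.46 (adjusted p = 0.0472), a call lost in 5 of 8 single-array omissions and with cyclic loess (-0.19, adjusted p = 0.348), and kept with tissue replicates 1 and 4 (-0.28, adjusted p = 0.0452).

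The type IV genes moved in both directions. They lie in 3 pairs that face away from each other, Col4a1 with Col4a2 on chromosome 8, Col4a3 with Col4a4 on chromosome 1 and Col4a5 with Col4a6 on chromosome X. Col4a1 and Col4a2 code for the chains of the common basement membrane network. Col4a1 read 12.69, 12.67, 12.77 and 12.70 in 3D and 13.26, 13.26, 12.64 and 13.39 in 2D, against 12.38, 10.94, 10.80 and 12.18 in tissue. Col4a2 read 12.27, 12.19, 12.32 and 12.22 in 3D and 12.71, 12.72, 11.92 and 12.96 in 2D, against 11.68, 10.22, 9.37 and 11.77 in tissue. In both genes each culture array read above each tissue array, and tissue replicates 2 and 3 were lowest. Col4a1 was higher by 1.13 in 3D (adjusted p = 0.0364) and 1.56 in 2D (adjusted p = 0.0212), and with tissue replicates 1 and 4 by 0.43 (adjusted p = 0.0086) and 0.86 (adjusted p = 0.0413). Col4a2 was higher by 1.49 in 3D (adjusted p = 0.0442) and 1.82 in 2D (adjusted p = 0.0381), and with tissue replicates 1 and 4 by 0.53 (adjusted p = 0.0023) and 0.85 (adjusted p = 0.0798). Leaving out any single 3D array or tissue replicate 2 ended both 3D calls, with adjusted p up to 0.0995 for Col4a1 and 0.120 for Col4a2. Leaving out tissue replicate 3 ended that of Col4a1 as well. Leaving out 2D replicate 1, 2 or 4 or tissue replicate 2 ended both 2D calls. The annotated genes of this pair overlap at their starts, and their promoters are not shown.

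Col4a3 and Col4a4, whose chains form the network known from the kidney glomerulus, fell in both cultures. Col4a4 read 5.76, 5.71, 5.47 and 5.39 in 3D and 6.0, 5.51, 5.86 and 5.58 in 2D, against 9.04, 8.52, 7.62 and 8.72 in tissue. Every tissue array lay above every culture array. The log2 difference was -2.89 in 3D (7.43-fold lower, standard error 0.28, adjusted p = 0.000149) and -2.74 in 2D (6.67-fold lower, standard error 0.29, adjusted p = 0.000597). With tissue replicates 1 and 4 it was -3.30 and -3.14, and both other probe sets of the gene fell in both cultures, by 0.99 to 3.62. Col4a3 read 5.97, 6.31, 6.21 and 6.03 in 3D and 5.79, 6.0, 5.87 and 6.13 in 2D, against 7.19, 6.57, 6.76 and 7.13 in tissue. It was lower by a log2 difference of -0.78 in 3D (adjusted p = 0.0090) and -0.97 in 2D (adjusted p = 0.0075), and by -1.03 and -1.21 with tissue replicates 1 and 4. Its second probe set was lower by -1.59 and -1.52. The 2 genes overlap in the annotation. No single omission ended the calls of Col4a3 or Col4a4. Col4a5 and Col4a6 did not pass in the unweighted fit with all tissue arrays as deposited. Col4a5 passed as lower in 3D after centring (-0.81, adjusted p = 0.0188), after cyclic loess (-0.78, adjusted p = 0.0215) and with array weights (-0.98, adjusted p = 0.0012). Its second probe set had the other sign and did not pass, with 0.40 in 3D (adjusted p = 0.169) and 0.07 in 2D (adjusted p = 0.895). Col4a5 read 8.06, 7.92, 8.10 and 7.80 in 3D and 7.66, 7.73, 5.28 and 8.95 in 2D, against 9.20, 7.96, 8.19 and 8.67 in tissue, and with tissue replicates 1 and 4 it was lower in 3D (-0.97, adjusted p = 0.0017).

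**Figure D3:**
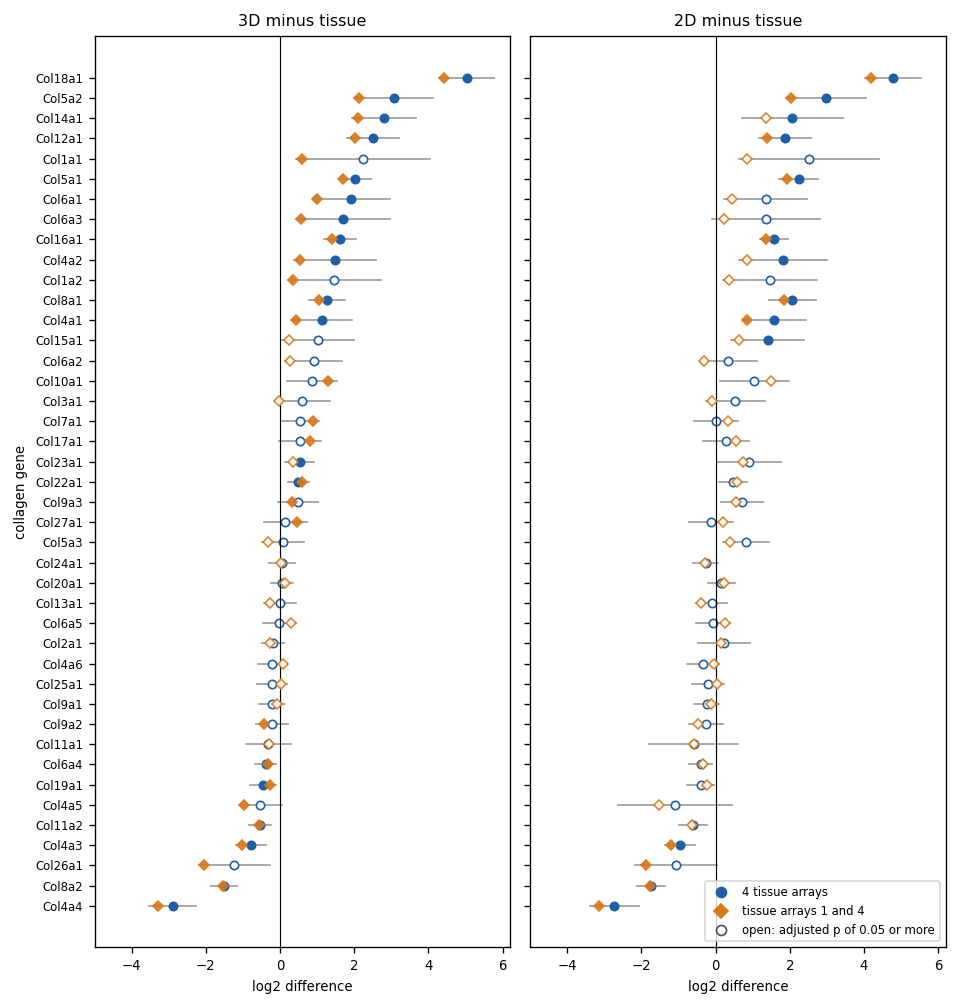
Log2 difference of each of the 42 collagen genes (rows) in 3D minus tissue (left) and 2D minus tissue (right), with all 4 tissue arrays (circles, bars are 95% intervals) and with tissue replicates 1 and 4 (diamonds), filled where the adjusted p is under 0.05. The diamond of Col1a1 lies at 0.59 in 3D where its circle lies at 2.25, while those of Col4a4 and Col8a2 lie near or beyond their circles.

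The 2 type VIII genes moved in opposite directions. Their chains form hexagonal lattices, as in Descemet's membrane of the cornea and in vessel walls. Col8a1 read 11.03, 11.00, 11.27 and 11.09 in 3D and 11.90, 11.45, 11.76 and 12.48 in 2D, against 10.43, 9.88, 9.36 and 9.67 in tissue. All arrays of each group were separate from those of the others, with 2D highest. Col8a1 was higher than in tissue by 1.26 in 3D (standard error 0.22, adjusted p = 0.0027) and by 2.06 in 2D (standard error 0.28, adjusted p = 0.0019), and by 1.05 and 1.85 with tissue replicates 1 and 4. Col8a2 read 4.20, 4.32, 4.48 and 4.32 in 3D and 4.05, 3.93, 4.32 and 4.13 in 2D, against 6.08, 5.60, 6.03 and 5.67 in tissue. Its log2 difference was -1.52 in 3D (adjusted p = 0.000183) and -1.74 in 2D (adjusted p = 0.000375), and -1.55 and -1.77 with tissue replicates 1 and 4. No single omission ended the calls of either gene, although the culture levels of Col8a2 lie near the lower end of the scale. Both promoters are shown because the genes moved apart. That of Col8a1 (chr16:57754738-57754887, minus strand) holds 3 GC boxes and that of Col8a2 (chr4:126286644-126286793, plus strand) holds 4, of which the last 2 overlap:
Col8a1: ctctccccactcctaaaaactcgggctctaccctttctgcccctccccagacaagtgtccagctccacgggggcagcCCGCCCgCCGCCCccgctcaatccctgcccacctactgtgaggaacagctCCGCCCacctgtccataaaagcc
Col8a2: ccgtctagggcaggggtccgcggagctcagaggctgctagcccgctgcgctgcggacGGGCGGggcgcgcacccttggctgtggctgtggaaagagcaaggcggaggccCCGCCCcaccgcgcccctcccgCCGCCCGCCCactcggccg
Neither window holds a CCAAT or TATA box as spelled above. Col10a1, the related chain of hypertrophic cartilage, differed from tissue by 0.86 in 3D (adjusted p = 0.0533) and by 1.05 in 2D (adjusted p = 0.0967), and in 3D by 1.30 (adjusted p = 0.0016) with tissue replicates 1 and 4.

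Of the 5 type VI genes, Col6a1 and Col6a3 rose and Col6a4 fell in 3D against tissue, and none passed in 2D. Type VI collagen forms beaded filaments close to cells, and Schwann cells and endoneurial fibroblasts are known sources in nerve. Col6a1 read 12.89, 12.44, 12.27 and 12.59 in 3D and 11.90, 12.48, 11.32 and 12.20 in 2D, against 11.46, 9.76, 9.65 and 11.62 in tissue. The 3D arrays lay above tissue, while 2D replicate 3 lay within the tissue range. The log2 difference was 1.93 in 3D (standard error 0.46, adjusted p = 0.0126) and 1.35 in 2D (standard error 0.49, adjusted p = 0.0768), and 1.01 (adjusted p = 0.0017) and 0.44 (adjusted p = 0.361) with tissue replicates 1 and 4. Col6a3 was higher by 1.70 in 3D (adjusted p = 0.0465), and by 0.57 (adjusted p = 0.0101) with tissue replicates 1 and 4. Its call was lost in 6 of 8 single-array omissions, and that of Col6a4 (-0.39, adjusted p = 0.0397, and -0.32 with tissue replicates 1 and 4) likewise in 6. Cyclic loess also ended the call of Col6a4 (-0.25, adjusted p = 0.0876). Col6a2 had log2 differences of 0.91 in 3D (adjusted p = 0.0689) and 0.35 in 2D (adjusted p = 0.460), and Col6a5 read 3.07 to 3.95 on the 12 arrays with no call.

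Of the 4 transmembrane genes, Col23a1 rose in 3D against tissue (0.53, adjusted p = 0.0434), a call that ended under most alternatives, among them tissue replicates 1 and 4 alone (0.35, adjusted p = 0.120), 6 of 8 single-array omissions and centring (0.25, adjusted p = 0.272). Col13a1, Col17a1 and Col25a1 did not pass, although Col17a1 passed in 3D with tissue replicates 1 and 4 (0.80, adjusted p = 0.0093) and with cyclic loess (0.79, adjusted p = 0.009). Col7a1, the anchoring fibril chain of skin, differed from tissue by 0.55 in 3D (adjusted p = 0.0808), and by 0.88 (adjusted p = 0.0023) with tissue replicates 1 and 4. Col26a1 read 4.60 to 5.12 in 3D and 4.55 to 5.92 in 2D, against 6.94, 5.46, 4.96 and 6.77 in tissue. Its log2 difference with all tissue arrays was -1.23 in 3D (adjusted p = 0.0516) and -1.06 in 2D (adjusted p = 0.137). With tissue replicates 1 and 4 it was lower in both cultures, by -2.05 (adjusted p = 3.48e-05) and -1.88 (adjusted p = 0.0200).

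None of the 42 collagen genes passed limma's test between 3D and 2D, and 10 had an unadjusted p under 0.05, beside 2377 of 18193 over all genes. The median log2 difference was 0.04, and the range ran from -0.80 for Col8a1 to 0.74 for Col14a1. The methods' t-test called 4 genes higher and 3 lower without adjustment and 0 after it. The share of all genes that this t-test calls was not taken. The 4 genes whose 3D and 2D arrays did not overlap were Col8a1, Col5a3, Col6a2 and Col27a1, each with an exact permutation p of 0.0286. Col8a1, with the values given above, was lower in 3D by a log2 difference of -0.80 (95% interval -1.25 to -0.35, adjusted p = 0.211). Col5a3, a minor fibrillar chain, read 10.20, 10.49, 10.26 and 9.92 in 3D and 10.50, 11.01, 11.20 and 11.11 in 2D, a log2 difference of -0.74 (95% interval -1.13 to -0.34, adjusted p = 0.198). Col6a2 read 12.04, 11.70, 11.65 and 11.43 in 3D and 11.05, 11.38, 10.87 and 11.27 in 2D, a difference of 0.56 (95% interval 0.21 to 0.91, adjusted p = 0.240). Col27a1, a fibrillar chain of cartilage, read 9.69, 9.88, 9.91 and 9.89 in 3D and 9.5, 9.62, 9.51 and 9.68 in 2D, a difference of 0.27 (95% interval 0.08 to 0.45, adjusted p = 0.284).

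The 3 chains close to the upper end of the scale had narrow intervals between the cultures, and the part of saturation was not tested. For Col1a2 the log2 difference in 3D minus 2D was -0.01 (95% interval -0.22 to 0.21), for Col3a1 it was 0.07 (-0.20 to 0.33) and for Col5a2 it was 0.10 (-0.12 to 0.31). For Col1a1 it was -0.26 (-0.87 to 0.35), for Col14a1 0.74 (-0.38 to 1.85) and for Col4a5 0.57 (-0.90 to 2.03). In Col1a1, Col14a1 and Col4a5, 2D replicate 3 read lowest of its group and 2D replicate 4 highest. Over the 42 genes, 2D replicate 3 read lowest of its group in 18 and 2D replicate 4 highest in 22, against 25.9% and 27.9% of all probe sets. On 2D replicates 1 to 4 the log2 summed level of 10 macrophage markers was 12.40, 11.67, 10.66 and 13.76. That of 10 pericyte and smooth muscle markers was 14.15, 13.97, 13.56 and 14.89, and that of 11 neuron markers was 15.99, 15.81, 15.79 and 14.43. For 12 fibroblast markers it was 15.106, 14.955, 14.778 and 15.087, lowest on 2D replicate 3 and highest on 2D replicate 1. The part of these cell types in the collagen levels was not tested. Without 2D replicates 3 and 4, an alternative chosen after the data had been seen, Col7a1 was higher in 3D (0.74, adjusted p = 0.0315) and Col4a1 lower (-0.55, adjusted p = 0.0397). Col7a1 also passed without 2D replicate 4 alone (0.71, adjusted p = 0.0309).

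**Figure D4:**
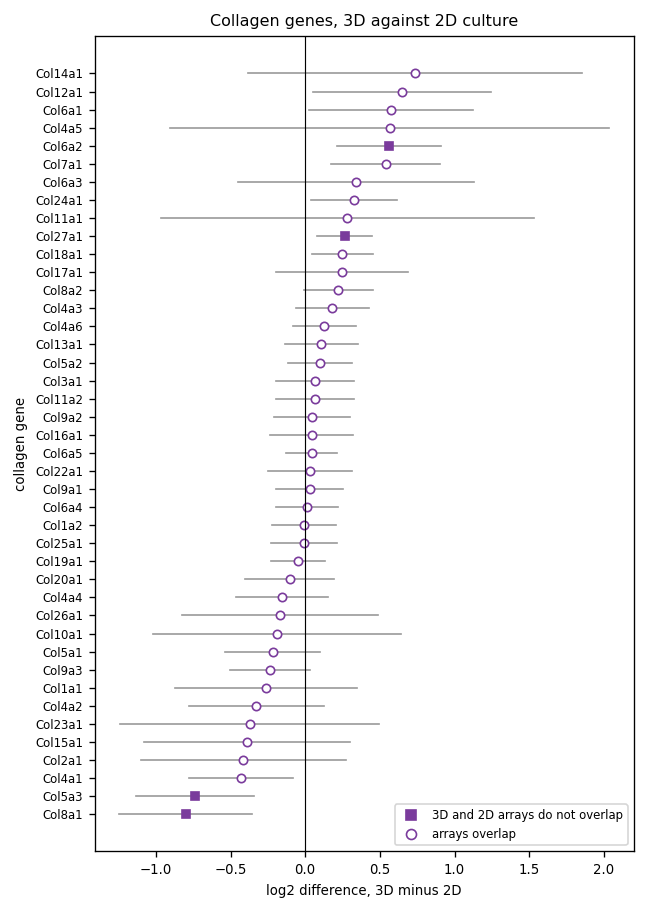
Log2 difference of each of the 42 collagen genes (rows) in 3D minus 2D with 95% intervals (bars) over 4 arrays a group; squares mark genes whose arrays do not overlap. The values run from -0.80 for Col8a1 to 0.74 for Col14a1, and 0 genes have an adjusted p under 0.05.

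The genes that make, bind and break down collagen were taken from 3 lists. Over all genes, 20.1% were higher and 15.5% lower in 3D than in tissue, and 14.3% and 9.87% in 2D. Of 28 measured genes of collagen biosynthesis (32 listed), 21 were higher and 2 lower in 3D than in tissue, and 20 higher and 1 lower in 2D than in tissue, with median log2 differences of 1.68 and 1.51. Against tissue replicates 1 and 4 the counts were 22 and 2 in 3D and 15 and 1 in 2D. All genes then had 24.6% higher and 22.7% lower in 3D, and 12.3% and 10.1% in 2D. Lox, the oxidase that starts crosslinking of fibrils, had a mean level of 11.58 in 3D and 11.27 in 2D against 6.85 in tissue, which are log2 differences of 4.72 (adjusted p = 9.22e-06) and 4.42 (adjusted p = 0.000828). Bmp1, the protease that trims the C-terminal propeptide of fibrillar procollagens, was higher by 2.42 in 3D (adjusted p = 6.94e-05) and 2.11 in 2D (adjusted p = 0.000797). P3h2, a prolyl 3-hydroxylase, was higher by 2.15 in 3D (adjusted p = 0.000222) and 1.72 in 2D (adjusted p = 0.000539). Colgalt2, which adds galactose to hydroxylysine, fell by 1.24 in 3D (adjusted p = 0.0010) and by 1.23 in 2D (adjusted p = 0.0045), and Tll2, a protease related to Bmp1, fell by 0.91 in 3D (adjusted p = 0.0165), both named after their values were seen as those of the list that fell.

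Of 9 measured collagen receptor genes (10 listed), 4 were higher and 1 lower in 3D and 2 higher and 1 lower in 2D than in tissue. The shares over all genes were 20.1% higher and 15.5% lower in 3D, and 14.3% and 9.87% in 2D. Ddr1, a receptor tyrosine kinase for collagen, was higher by 0.80 in 3D (adjusted p = 0.0023) and 0.58 in 2D (adjusted p = 0.0292). Itga1, the integrin alpha chain that binds type IV collagen, was higher by 1.38 in 2D (adjusted p = 0.0187), and Itga10, which binds type II collagen in cartilage, was lower in 3D and 2D (-0.61, adjusted p = 0.0266, and -0.79, adjusted p = 0.0175). Of 6 genes of collagen breakdown, 5 were higher in 3D and 4 in 2D (20.1% and 14.3% of all genes). Mmp13, a collagenase, was higher by 4.49 in 3D (adjusted p = 0.000183) and 3.02 in 2D (adjusted p = 0.0186). With tissue replicates 1 and 4 the 2D calls of Mmp13 (adjusted p = 0.0541) and Mmp9 (adjusted p = 0.0757) were lost. That left 2 of the 4 calls of the breakdown list in 2D. Mmp14, a membrane-bound collagenase, was higher by 2.09 in 3D (adjusted p = 0.000497) and 2.22 in 2D (adjusted p = 0.0013). Between 3D and 2D none of the genes in the 3 lists passed, and their smallest adjusted p was 0.282, for Plod1, a lysyl hydroxylase (log2 difference -0.24). At an unadjusted p under 0.05 there were 7 of 28 in biosynthesis, 2 of 9 among receptors and 0 of 6 in breakdown, beside 2377 of 18193 over all genes.

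Markers of cell types differed between cultures and tissue beside the collagen genes. Their counts stand beside 20.1% higher and 15.5% lower of all genes in 3D, and 14.3% and 9.87% in 2D. Several lists lay near these shares. Of 11 measured cell cycle genes, 10 were higher in each culture than in tissue, with median log2 differences of 3.64 in 3D and 3.63 in 2D. Their log2 summed level was 13.752 to 14.004 in 3D and 13.38 to 14.08 in 2D, against 11.29 to 11.56 in tissue. Of 12 fibroblast markers, 2 were higher and 5 lower in 3D and 2 higher and 4 lower in 2D than in tissue. The 2 higher ones were Postn and Fbln2, matrix genes named after their values were seen. The lower ones were Dpt, Thy1, Pi16, Fap and Gsn in 3D and Dpt, Dcn, Lum and Gsn in 2D. The summed level overlapped, at 14.89 to 15.20 in 3D and 14.78 to 15.11 in 2D against 14.51 to 15.48 in tissue. A summed level follows its brightest genes most, and these went in both directions. Postn read 13.61 to 13.96 in the cultures against 9.63 to 11.74 in tissue. Dcn read 10.94 to 11.57 in 2D against 12.49 to 13.85 in tissue, and Thy1 read 11.39 to 12.12 in 3D against 12.31 to 13.51. The overlap therefore does not give the amount of fibroblasts. Of 9 satellite and Schwann glia markers, 4 were higher and 1 lower in each culture, with a summed level of 15.31 to 15.43 in 3D and 14.92 to 15.34 in 2D against 14.06 to 15.38 in tissue. Of 11 endothelial markers, 7 were lower in 3D and 6 lower and 1 higher in 2D than in tissue. Of 10 pericyte and smooth muscle markers, 2 were higher and 3 lower in 3D and 3 higher and 2 lower in 2D, and the summed level was 13.04 to 13.70 in 3D and 13.56 to 14.89 in 2D against 12.82 to 13.06 in tissue. Of 10 macrophage markers, 4 were higher and 4 lower in 3D and 2 higher in 2D, and of 11 neuron markers, 4 were lower in 3D and none passed in 2D. Of 12 skeletal muscle genes, 7 were lower in 3D and 4 in 2D. Of 10 cartilage genes, 1 was higher and 3 lower in 3D and 3 lower in 2D. Of 10 genes of gland and surface epithelium, 1 was lower in each culture, and of 6 adipocyte genes, 2 were lower in each. With tissue replicates 1 and 4, 10 neuron markers were lower in 3D and 2 in 2D. Lower skeletal muscle genes numbered 3 in 3D and 1 in 2D. For endothelial markers, 10 were lower in 3D and 8 in 2D, with 0 higher in each. Macrophage markers had 4 higher and 5 lower in 3D, and 0 and 1 in 2D. Fibroblast markers had 2 and 6 in 3D, and 2 and 5 in 2D. Glia markers had 5 and 3 in 3D, and 3 and 2 in 2D. No cartilage gene was higher in this setting. All genes then had 24.6% higher and 22.7% lower in 3D, and 12.3% and 10.1% in 2D. No gene of the marker lists passed between 3D and 2D. The part of these cell types in the collagen results was not tested.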

How the data were processed

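RNA of 12 samples had been hybridised to Affymetrix mouse genome arrays of the 3′ type, 1 array per sample. The deposited values are log2 expression per probe set, which the authors made with RMA in Affymetrix Expression Console (version not given in the sources used here), including background correction, quantile normalization and summary over probes. Scanner files were not used here. RMA equalises the probe intensities of the arrays before they are summarised, which can hide a change that most genes have in common, and the summarised values still differed in spread between arrays.

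Groups came from the sample labels. 64 control probe sets were left out, and 45037 remained, of which 34945 had 1 platform symbol, 932 several and 9160 none. Pairs of groups were fitted with limma 3.58.1 in R 4.3.3 (lmFit, eBayes) on 8 arrays, with Benjamini-Hochberg adjustment and a threshold of 0.05. Single genes were also given an exact two-sided permutation test over 70 splits. The test was also run on simulated data, drawn independently per gene with the same SD in both groups. Such data lack the uneven tissue arrays, so the run says nothing about the calls against tissue. Values on every array are given for Col1a1, Col1a2, Col3a1, Col4a1, Col4a2 and Col6a1 and, per comparison, for the 5 genes of highest and the 5 of lowest log2 difference among those that passed, and other members are given in their class. From each pathway list up to 3 genes with the smallest adjusted p per comparison are named. Members, classes, pathway lists and marker lists were chosen with earlier results of these data known. The sources do not say what a replicate number marks, and the numbers were not used as pairs because not every correlation of same-numbered arrays was over 0.1. Alternatives were cyclic loess, centring on bright probe sets, a filter on dim probe sets (at least 6 on at least 4 arrays), a fold minimum of 2, other probe sets, array weights, other eBayes priors, 1 fit of 12 arrays, the methods' t-test, a replicate block and the omission of arrays. Promoter sequences and annotation came from RefSeq on GRCm38.p6. The number of arrays limits the precision.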

Additional observations from a re-analysis of the deposited data

Results flagged for a closer look

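In 7 of the 126 groups of 4 arrays (42 genes in 3 groups), 1 array lay far from the other 3 by Dixon's test, and chance flags about 1 group in 20. On 3D replicate 1, Col11a1 was highest of its group at 8.43 (nearest 7.48), Col16a1 lowest at 10.7 (nearest 11.13), Col25a1 lowest at 7.25 (nearest 7.42) and Col27a1 lowest at 9.69 (nearest 9.88). On 2D replicate 4, Col7a1 was highest at 7.54 (nearest 6.91). On 2D replicate 3, Col14a1 was lowest at 10.02 (nearest 12.22). On 2D replicate 1, Col26a1 was highest at 5.92 (nearest 4.72).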

How the results depend on the processing

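No collagen gene that passed reversed under the alternatives run, apart from 1 dim probe set of Col12a1, read on its own, that passed as lower in 3D minus tissue (-0.58). Leaving single replicates aside, 8 of the 13 higher and 2 of the 6 lower genes in 3D minus tissue passed under every alternative run for them, a minimum of 2-fold included, as did 4 of the 10 higher and 2 of the 4 lower genes in 2D minus tissue. The call of Col23a1 in 3D minus tissue ended under 11 of 15. Between 3D and 2D, where no collagen gene passed, 1 gene (Col7a1) was higher with array weights, without 2D array 4 and 3D array 1, and without 2D arrays 3 and 4 (chosen after seeing the data), and 1 (Col4a1) was lower with array weights and without 2D arrays 3 and 4. The methods' t-test without adjustment gave 4 higher and 3 lower. In 3D minus tissue, where 6 were lower, 3 were lower without dim probe sets and 2 at a minimum of 2-fold. In 2D minus tissue, where 10 were higher and 4 lower, 17 were higher in 1 fit of all 12 arrays. There, 6 were higher without 2D array 4 and 3D array 1, and 6 by the methods' t-test after adjustment. Lower genes numbered 2 without dim probe sets and 2 at a minimum of 2-fold. With single replicates left out, the number higher ranged from 0 to 1 and the number lower was 0 in 3D minus 2D, 8 to 16 higher and 4 to 7 lower in 3D minus tissue, and 6 to 14 higher and 3 to 4 lower in 2D minus tissue. Centring on bright probe sets left all genes with a median log2 difference of -0.31 in both comparisons with tissue, against -0.03 as deposited. With the replicate number as a block there were 0 higher and 0 lower in 3D minus 2D, 13 and 4 in 3D minus tissue and 11 and 5 in 2D minus tissue, while deviations of equal numbers correlated at 0.03 to 0.41 between 3D and 2D (4 of 4 above 0), 0.01 to 0.25 between 3D and tissue and -0.07 to 0.35 between 2D and tissue. The filter on dim probe sets removed Col8a2, Col11a2 and Col19a1, which were therefore not tested under it. A minimum of 2-fold ends any call of smaller size by definition. The cause of the other changes was not tested. The share of all genes that passed was taken only for the limma test stated in the Results and without tissue replicates 2 and 3. Under the other alternatives the counts of collagen genes have no such share beside them. RMA gives no detection call, and 10 of the 42 genes had means below 6.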
